A study of Mus musculus with 14 samples.

Results

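The 34 genes described here are Trp53, which encodes the transcription factor p53, and genes known as its targets or close partners. They were taken by symbol from both deposited count tables, with CDK inhibitors and the BCL2 family left out, and all 34 were found among the 55367 gene symbols of each table. The cells were wild-type mouse bone marrow depleted of mature blood lineages and grown in SCF, IL6 and IL3. For the first experiment they received a lentivirus carrying luciferase (3 libraries, the controls) or the SETBP1-D868N mutant (3 libraries). In the second experiment all groups had received SETBP1-D868N, and the cells spent 4 days in the solvent DMSO (4 libraries) or in PF-9363 at 2.5 µM (4 libraries). PF-9363 inhibits histone acetyltransferases of the MYST family, and SETBP1 is a partner of the nuclear protein SET. The DMSO controls thus received the mutant too, and no group was treated with PF-9363 without it. The strain and age of the mice, and the share of cells that carried the vector, are not given in the sources used here.

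p53 is made all the time and destroyed fast, because the ubiquitin ligase Mdm2 marks it for breakdown and the related protein Mdm4 holds it inactive. Stress signals such as DNA damage, oncogenes or a failing nucleolus release p53, which then binds DNA as a tetramer and switches on genes for growth arrest, repair and cell death, Mdm2 among them. Because this control acts on the protein, the amount of Trp53 messenger RNA and that of its targets can move apart. In blood-forming cells p53 is known for limiting stem cell division and for removing damaged progenitors.

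Values are CPM, the usual counts relative to library total, with totals scaled by the TMM method of edgeR (trimmed mean of M-values) inside each experiment. Libraries held 60147266 to 68730322 counts (first experiment) or 7083731 to 10359093 counts (second), and in the latter a count of 0 allows up to 0.272 to 0.467 CPM, counting error only. Counts of Setbp1, which could include reads of the vector, were 5, 6 and 6 in the luciferase libraries and 23, 20 and 24 in the SETBP1-D868N libraries. They were 2, 1, 0 and 0 with DMSO and 0 in all 4 PF-9363 libraries, so Setbp1 gave no check of the second experiment. Markers of mature myeloid cells were high in these lineage-depleted cultures, while Cd3e and Ms4a1, markers of T and B cells, were at 0 counts in all 8 libraries of the second experiment. The labels do not say whether the replicates were separate cultures, so p-values measure the spread between these libraries. In bulk RNA, fewer cells of a type and less RNA per cell cannot be told apart. Calls use an adjusted p under 0.05, with adjustment over every gene tested in the experiment.

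A p53 binding site is built from a 10-base motif, usually present as a pair, that reads 3 purines, C, 2 bases that are A or T, G and 3 pyrimidines, and it is its own reverse complement, so that a search of 1 strand covers both. Windows from 250 bases before to 50 bases after a RefSeq start site (build GRCm38.p6) were given for 26 of the 34 genes, 36 windows in all. Pvt1, Ptp4a3, Trp53inp1, Zmat3, Tnfrsf10b, Perp, Ddb2 and Xpc had none. An exact match stood in 10 of the 36 windows (27.8%) and in 2745 of 32851 windows of all genes (8.36%), a description of letters and not of binding. By gene these were 9 of 26 (34.6%) and 2582 of 27025 (9.55%). The motif stood in 3 of 12 genes that rose with PF-9363 (Mdm2, Ccng1 and Aen), 3 of 6 that fell (Polk, Ei24 and Gtse1) and 3 of 6 not called (Trp53, Sesn1 and Ppm1d). A looser pair of motifs, at most 13 bases apart and with at most 3 mismatches in all outside the central bases from C to G, stood in 6 of 26 genes (23.1%) and in 7.63% of all genes. The stretches around 7 of the matches are given to show where such motifs lie, whether or not the gene was called, 5′ to 3′ on the gene's strand, with the motif in capitals.
Trp53: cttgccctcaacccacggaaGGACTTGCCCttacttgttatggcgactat
Mdm2: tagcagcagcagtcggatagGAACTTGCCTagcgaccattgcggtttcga
Ccng1: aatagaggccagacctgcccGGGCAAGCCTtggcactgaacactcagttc
Sesn1: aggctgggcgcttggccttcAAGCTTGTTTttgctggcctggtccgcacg
Ppm1d: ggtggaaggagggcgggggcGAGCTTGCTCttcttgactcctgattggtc
Polk: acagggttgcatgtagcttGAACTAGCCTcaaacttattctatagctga
Ei24: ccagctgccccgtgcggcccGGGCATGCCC

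The Trp53 stretch lies at chr11:69580264-69580313 (+ strand), the Mdm2 stretch at chr10:117710915-117710964 (− strand), the Ccng1 stretch at chr11:40755442-40755491 (− strand) and the Ppm1d stretch at chr11:85311102-85311151 (+ strand). All 4 are outside their genes in GENCODE M21, with the motif starting 75, 186, 185 and 132 bases before the start site. The Sesn1 stretch (chr10:41887246-41887295, + strand) and the Polk stretch (chr13:96519389-96519437, − strand) precede internal start sites and are intronic in the longer gene model. The Ei24 stretch (chr9:36797335-36797364, − strand) ends at the RefSeq start site and overlaps an exon of GENCODE. The remaining matches were in Aen (GGGCTTGTCC, in 2 overlapping windows) and Gtse1 (GGGCTTGCCT), both in exons.

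The second experiment asked how PF-9363 changes transcripts in cells carrying SETBP1-D868N, and the p53 genes moved by large amounts there. Phlda3, Plk2, Gdf15, Fas, Plk3, Sesn2 and Btg2 rose 3.57-fold to 9.88-fold, and Mdm2 rose 2.06-fold, while the level of Trp53 itself did not pass the test. Of the 34 genes, 32 passed the filter on low counts, and 17 of them rose and 7 fell at an edgeR adjusted p under 0.05. Over all 13456 genes tested, 76.0% were called, 36.6% higher and 39.4% lower, or 28.1% higher and 49.4% lower with scaling by library size. Among the p53 genes 13 rose and 3 fell at least 2-fold, 40.6% and 9.38% of those tested, against 15.8% and 18.1% of all genes. These 2-fold shares were counted with TMM scaling only. In other fits Mdm2 went as low as 0.81 and Pltp as 0.95 on the log2 scale, below 2-fold. Dcxr came to −0.99 in 1 direction of change and Polk to −1.02 in the other. The median log2 fold change of the p53 genes was 0.24, against −0.04 over all genes tested. Library-size scaling shifted the log2 fold changes of all genes by a median of −0.23, and the members' median went from 0.24 to 0.01. Groups did not overlap in 24 of the 32, against 70.3% of all genes.

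**Figure D1:**
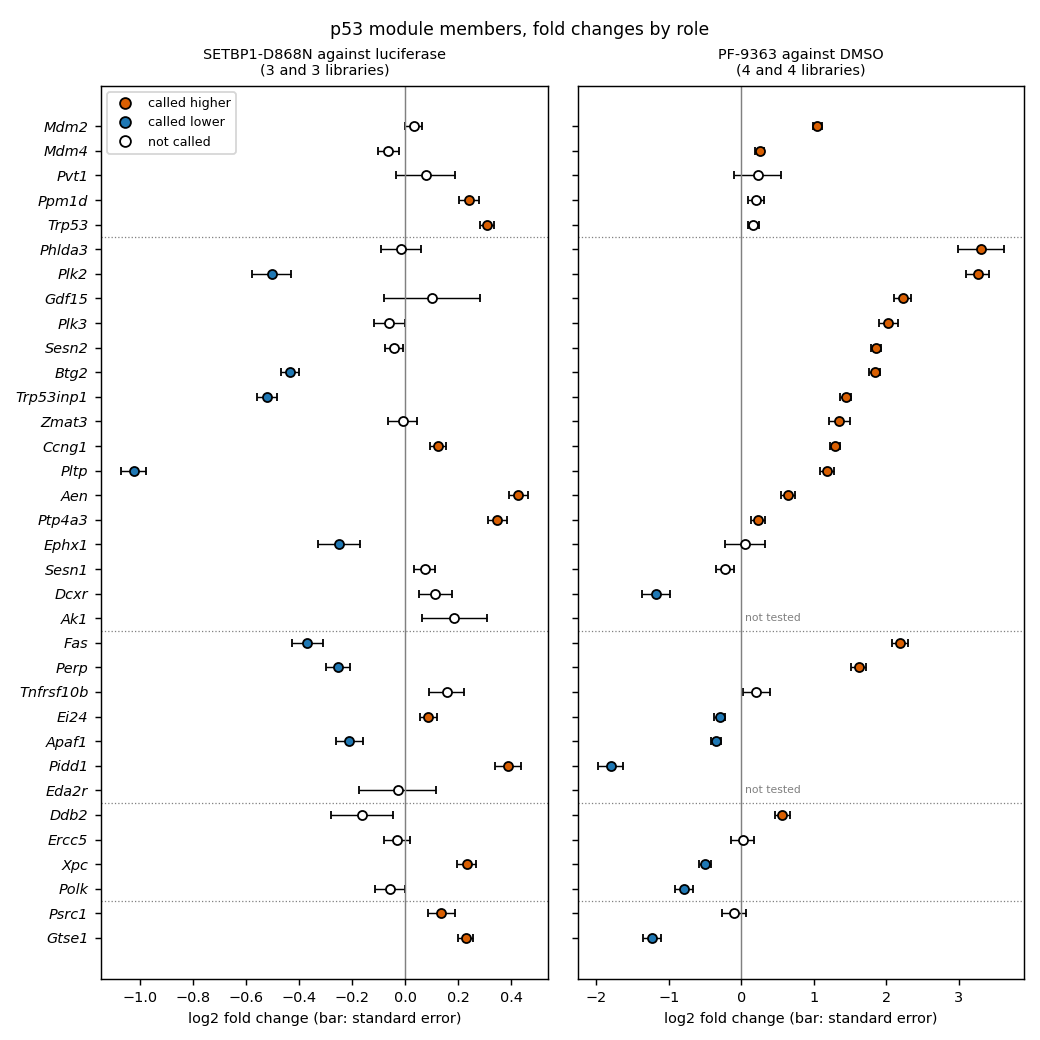
Log2 fold change of the p53 genes in the first experiment (left) and the second (right), on separate scales, ordered within 5 roles divided by dotted lines; bars are standard errors and the fill gives the edgeR call at an adjusted p under 0.05. With PF-9363 the growth arrest and stress genes reach 3.30, while in the first experiment no value but that of Pltp (−1.03) passes 1 in size.

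At the core of the pathway, the ligase and its partner moved and p53 did not pass. Trp53 stood at 86.3, 73.8, 78.9 and 72.8 CPM in DMSO libraries 1 to 4 and at 79.0, 80.6, 99.2 and 92.3 CPM in PF-9363 libraries 1 to 4. The groups overlapped, and the log2 fold change was 0.17 (SE 0.079, edgeR adjusted p 0.0539). That value sits at the threshold: it passed with RLE size factors (0.19, adjusted p 0.0285), with DESeq2 (0.20, 0.0476), with a mean-count filter (0.17, 0.0498), and in fits leaving out DMSO 1 (0.22, 0.0255), PF-9363 1 (0.22, 0.0200) or PF-9363 2 (0.22, 0.0208), and it became −0.06 under library-size scaling. Mdm2 went from 77.6, 83.0, 77.9 and 75.8 CPM to 158.7, 154.0, 164.8 and 171.7 CPM. Every treated library was above every control library, with a shift of 1.05 on the log2 scale (SE 0.064, edgeR adjusted p 9.84e-15). Mdm4 went from 120.7, 139.0, 117.2 and 123.6 CPM to 147.9, 145.3, 157.5 and 146.2 CPM, a shift of 0.25 on the log2 scale (SE 0.065, edgeR adjusted p 9.09e-04). The Mdm4 groups were close, and scaling by library size ended its call (0.02, adjusted p 0.760). Ppm1d, a phosphatase that turns off p53 and its kinases, was not called (19.5 ± 1.46 and 22.5 ± 2.44 CPM, log2 fold change 0.20), though it passed without PF-9363 4 (0.27, adjusted p 0.0421) and became −0.03 under library-size scaling. Pvt1, a long noncoding RNA beside Myc, was not called either, at 1.90 ± 0.412 and 2.28 ± 0.781 CPM (SD, n = 4).

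**Figure D2:**
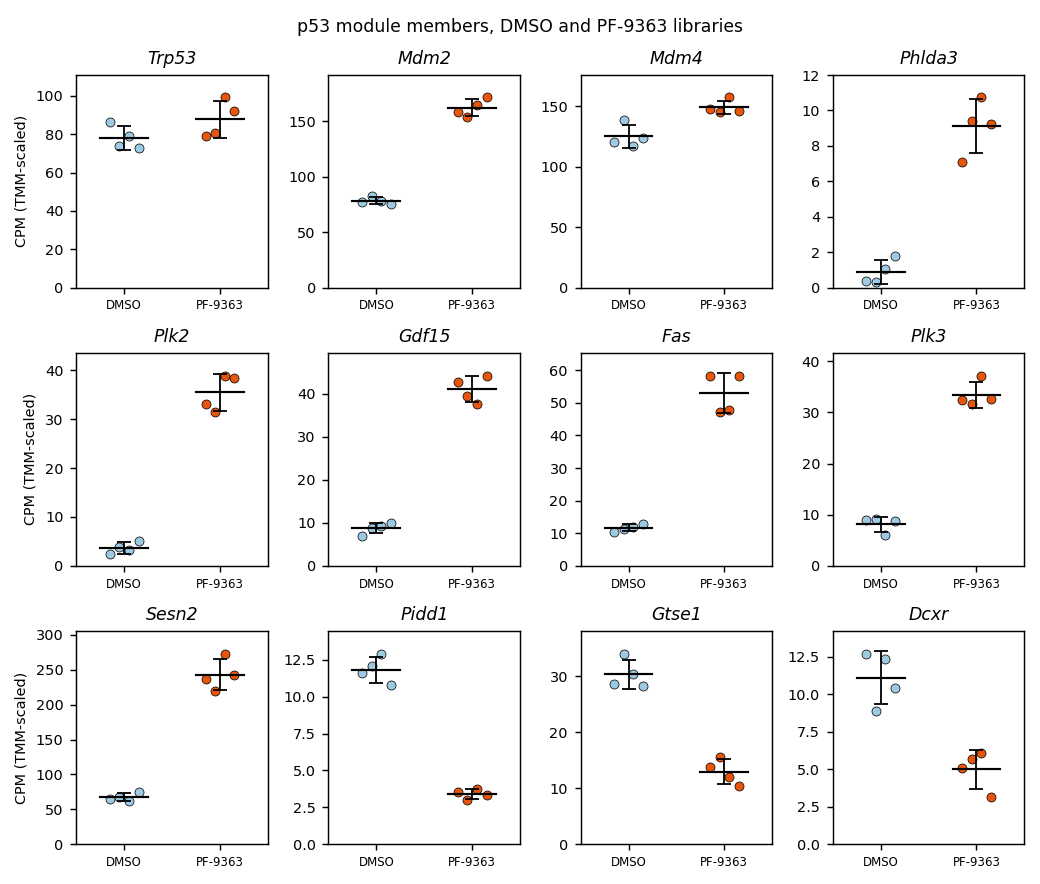
CPM of 12 p53 genes in each DMSO and PF-9363 library (points), with group mean and SD (bars, n = 4), on axes that start at 0. The groups overlap for Trp53 and are apart in the 11 other panels, with Pidd1, Gtse1 and Dcxr lower in the PF-9363 libraries.

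The growth arrest, stress and metabolism targets held most of the rises. Of 15 tested genes 12 were higher and 1 lower, beside 36.6% and 39.4% of all genes. Phlda3, a small protein that keeps the kinase Akt off the membrane, was close to the limit of counting with DMSO at 0.397, 0.299, 1.03 and 1.81 CPM (4, 3, 11 and 20 counts). It reached 7.11, 9.41, 10.7 and 9.22 CPM with PF-9363, a shift of 3.30 on the log2 scale (SE 0.32, edgeR adjusted p 1.32e-09). The lowest treated library was thus well above the highest control, and the size of the fold rests on few control counts. Plk2, a polo-like kinase of the stress response, went from 2.38, 3.89, 3.18 and 5.17 CPM to 33.1, 31.5, 38.9 and 38.5 CPM. Its log2 fold change was 3.26 (SE 0.16, edgeR adjusted p 1.16e-16), with no overlap between groups. Plk3, a related kinase, went from 8.93, 9.08, 5.99 and 8.71 CPM to 32.5, 31.6, 37.2 and 32.5 CPM, a shift of 2.03 on the log2 scale (SE 0.13, edgeR adjusted p 1.90e-14). It shares 84 exonic bases with Tctex1d4 on the other strand, and strand handling in the counting is not given in the sources used here. Gdf15, a secreted stress cytokine of the TGF-beta family, went from 7.04, 8.78, 9.37 and 9.89 CPM to 42.8, 39.6, 37.7 and 44.3 CPM. Its log2 fold change was 2.23 (SE 0.12, edgeR adjusted p 2.87e-16), with no overlap between groups.

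Other genes of this role rose by between 2.26-fold and 3.63-fold. Sesn2, a sestrin that restrains the growth kinase mTOR, rose from 66.9 ± 5.69 to 243 ± 22.3 CPM, and Btg2, which recruits the deadenylase that shortens messenger RNA tails, from 49.8 ± 6.59 to 178 ± 11.0 CPM. Their log2 fold changes were 1.86 and 1.84. Sesn1, the other sestrin of the list, was not called, at 21.5 ± 3.04 and 18.5 ± 2.84 CPM. The 2 sestrins thus had different outcomes, and Sesn1 passed as lower under library-size scaling (−0.45, adjusted p 0.00271) and without DMSO 2 (−0.30, adjusted p 0.0468). Trp53inp1, a p53 cofactor that also acts in autophagy, rose by 1.44 on the log2 scale, Zmat3, an RNA-binding regulator of splicing, by 1.35, Ccng1 (cyclin G1) by 1.30 and Pltp, the phospholipid transfer protein, by 1.18. Pltp shares 495 exonic bases with Ctsa on the other strand.

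Smaller rises were seen for Aen, an apoptosis-enhancing nuclease (24.9 ± 1.70 to 39.0 ± 2.52 CPM), and for the phosphatase Ptp4a3 (27.6 ± 3.07 to 32.4 ± 0.842 CPM, log2 fold change 0.23, edgeR adjusted p 0.0382). The Ptp4a3 call was lost without the count filter (0.21) and when DMSO 1 (0.17), DMSO 2 (0.19), PF-9363 1 (0.23) or PF-9363 3 (0.23) was left out, and its value was −0.003 under library-size scaling. Dcxr, an enzyme that reduces sugars and dicarbonyls, was the single gene of the role that fell. It went from 12.7, 8.88, 12.4 and 10.4 CPM to 5.05, 5.67, 6.07 and 3.15 CPM, a shift of −1.18 on the log2 scale (SE 0.19, edgeR adjusted p 2.62e-06). Ephx1, an epoxide hydrolase, was not called at 2.76 ± 0.528 and 2.84 ± 0.745 CPM. Ak1, an adenylate kinase, was too low to be tested, with means of 1.33 CPM for DMSO and 0.784 CPM for PF-9363.

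Of the 6 apoptosis targets tested, 2 were higher and 3 lower, beside 36.6% and 39.4% of all genes. Fas, the death receptor for Fas ligand, went from 10.4, 11.3, 11.9 and 12.97 CPM to 58.1, 47.2, 47.9 and 58.4 CPM. That is a shift of 2.19 on the log2 scale (SE 0.11, edgeR adjusted p 7.87e-17), with the groups far apart. Perp, a membrane protein of cell junctions, went from 13.98, 14.1, 12.4 and 13.7 CPM to 37.8, 41.1, 45.9 and 42.0 CPM, a shift of 1.62 on the log2 scale (SE 0.10, edgeR adjusted p 2.63e-14). The genes that fell act inside the cell. Pidd1, the scaffold that activates caspase-2, fell from 11.6, 12.1, 12.9 and 10.8 CPM to 3.502, 2.97, 3.74 and 3.36 CPM, a shift of −1.80 on the log2 scale (SE 0.17, edgeR adjusted p 2.17e-10). Its DMSO and PF-9363 libraries did not overlap. Apaf1, the core of the apoptosome, fell from 166.6 ± 18.8 to 130.8 ± 4.01 CPM and Ei24, a protein of the endoplasmic reticulum, from 60.7 ± 2.13 to 49.4 ± 1.91 CPM, by 0.35 and 0.30 on the log2 scale. Ei24 shares 324 exonic bases with Gm26787 on the other strand. Tnfrsf10b, the receptor for TRAIL, was not called at 5.58 ± 0.626 and 6.42 ± 0.640 CPM, and its log2 fold change of 0.20 became −0.02 under library-size scaling. Eda2r, a receptor for ectodysplasin, was not tested, with 1, 0, 2 and 0 counts in the DMSO libraries and 0, 4, 5 and 8 in the PF-9363 libraries.

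The repair genes moved less and in both directions. Polk, a polymerase that copies past damaged bases, fell from 19.8, 21.5, 16.0 and 19.3 CPM to 10.8, 11.3, 10.7 and 11.3 CPM, a shift of −0.79 on the log2 scale (SE 0.13, edgeR adjusted p 2.54e-06). Xpc, which finds distorted DNA for nucleotide excision repair, fell from 62.6, 58.4, 63.9 and 62.0 CPM to 40.1, 47.1, 44.8 and 43.1 CPM. That is a shift of −0.50 on the log2 scale (SE 0.079, edgeR adjusted p 1.90e-06), again with no overlap. Ddb2, which hands such damage to Xpc, rose from 23.8 ± 2.11 to 35.3 ± 4.11 CPM (log2 fold change 0.56), so the 2 damage finders moved apart. Ddb2 shares 652 exonic bases with Acp2 on the other strand. Ercc5, an endonuclease of the same pathway, was not called at 8.76 ± 0.366 and 8.81 ± 1.21 CPM.

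Of the 2 members that also act in mitosis, 1 fell, where 39.4% of all genes were called lower. Gtse1, a microtubule protein that carries p53 out of the nucleus, fell from 28.7, 34.03, 30.4 and 28.3 CPM to 13.8, 15.6, 12.0 and 10.4 CPM. Its log2 fold change was −1.23 (SE 0.12, edgeR adjusted p 3.96e-10). Psrc1, a spindle protein, was not called at 8.62 ± 1.15 and 8.06 ± 1.07 CPM. Beside this, all 20 genes of a cell division list were called lower, against 39.4% of all genes. Their median log2 fold change was −2.45. Their summed level was 3575 to 3818 CPM with DMSO and 457.9 to 999.6 CPM with PF-9363. Aurkb (−3.44), Bub1 (−3.22) and Ccnb2 (−2.97), all needed to pass through mitosis, had the largest falls. The part of cell division in the p53 genes was not tested.

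**Figure D3:**
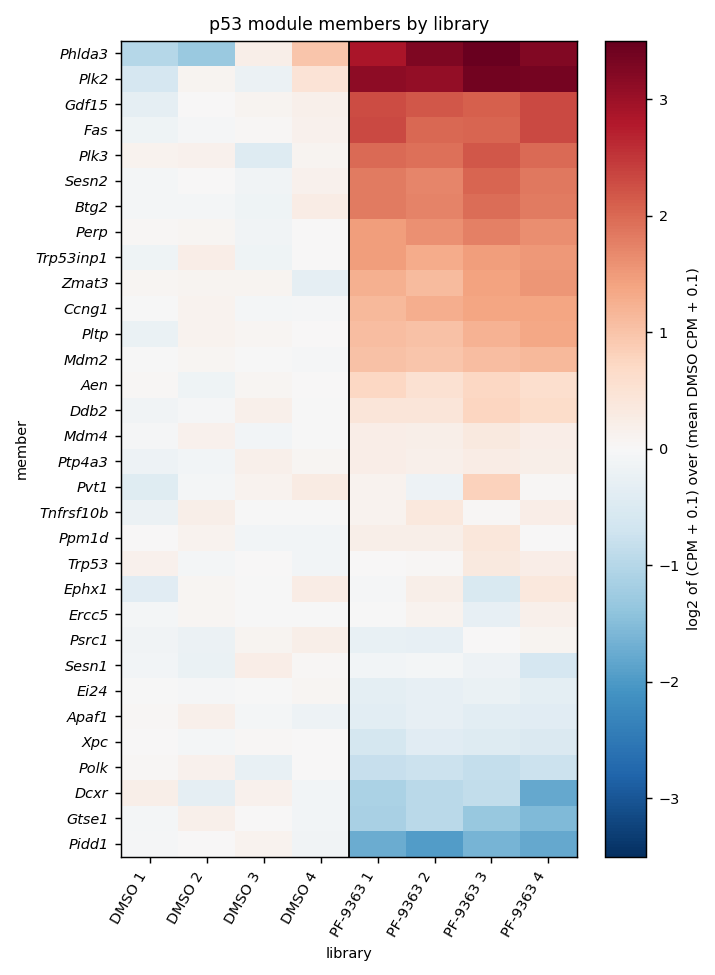
Log2 ratio of each library's CPM to the mean of the DMSO libraries (0.1 CPM added to both) for the 32 p53 genes tested in the second experiment, ordered by fold change from Phlda3 (3.30) to Pidd1 (−1.80). The 4 PF-9363 libraries show the same direction for each of the 17 genes that rose and the 7 that fell, and Phlda3 varies most among the DMSO libraries.

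Markers of cell types moved with PF-9363 as well, where 36.6% of all genes were called higher and 39.4% lower. The monocyte and macrophage list had 9 of 10 genes called higher and 1 lower, and its summed level went from between 3009 and 3111 CPM to between 10110 and 11970 CPM. The mast cell and basophil list had 9 of 10 called higher, from 1211 to 1587 CPM to 4807 to 5794 CPM, and the neutrophil list 3 of 12 higher and 5 lower, from 19190 to 22480 CPM to 16960 to 18430 CPM. The stem and progenitor list had 4 of 8 called higher and 2 lower, with sums of 225.2 to 250.8 and 573.1 to 675.1 CPM. None of the genes of these 4 lists was at 0 in every library of a group. The erythroid and megakaryocyte list summed to 40.8 to 48.4 and 209.6 to 231.9 CPM, with Hbb-bs at 0 in all DMSO and Slc4a1 at 0 in all PF-9363 libraries. Only 3 of its 9 genes were tested, and 2 were called higher and 0 lower, with a median log2 fold change of 0.45. Groups did not overlap for 1 of those tested, against 70.3% of all genes, so the sum does not describe the list as a whole. The lymphocyte list summed to 52.7 to 58.2 and 3.74 to 5.21 CPM, most of it Ighm (means of 53.4 and 2.83 CPM). The part of these cell types in the p53 genes was not tested.

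Levels can be compared between genes only per length, as CPM per kilobase of merged exons. With DMSO, Ccng1 was highest at 35.0, followed by Trp53 (19.3), Sesn2 (19.3), Apaf1 (18.5) and Btg2 (18.1). The last 4 differed by less than their spread between libraries, with coefficients of variation of 7.91%, 8.50%, 11.3% and 13.3%. With PF-9363 the order was Ccng1 (86.1), Sesn2 (70.0), Btg2 (64.9), Mdm2 (31.9) and Trp53inp1 (29.96), and Trp53 stood at rank 8 with 21.7 CPM per kilobase. Over the 32 tested members the median coefficient of variation was 10.7% in DMSO and 9.76% in PF-9363 libraries, with Phlda3 (79.0%) the most variable of them in DMSO and Pvt1 (34.3%) in PF-9363.

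Of a list of 25 other p53 targets 24 were tested, and 15 were called higher and 8 lower, beside 36.6% and 39.4% of all genes. Their median log2 fold change was 0.60, against −0.04 over all genes. Gadd45a, a growth arrest and repair factor, went from 46.4 ± 4.89 to 287 ± 11.7 CPM (2.63), the sulfatase Sulf2 from 4.85 ± 0.915 to 24.9 ± 4.04 CPM (2.35) and Rrm2b, a ribonucleotide reductase subunit, from 21.5 ± 3.42 to 103 ± 21.8 CPM (2.27). The values in parentheses are log2 fold changes, all with edgeR adjusted p-values at or below 1.87e-06. Lower were Ckap2 (−2.41), Sco2 (−1.40) and Trp53i11 (−1.22), a mitotic, a mitochondrial and a poorly known gene. Among the targets that belong to the CDK inhibitors and the BCL2 family, Cdkn1a (p21) rose from 193 to 464 CPM, Bax from 16.7 to 49.0 CPM and Bbc3 (Puma) from 12.0 to 52.5 CPM, and Pmaip1 (Noxa) fell from 96.3 to 61.0 CPM. Gadd45a, Sulf2, Rrm2b and Cdkn1a each share exonic bases with a gene on the other strand. Of its 1253 exonic bases, Sco2 shares 856 with Tymp on the same strand and 829 with Ncaph2 on the other. Bax shares 192 exonic bases with Gm45808 on the same strand.

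Among 31 genes that act on p53, 29 were tested, and 11 were called higher and 16 lower, beside 36.6% and 39.4% of all genes. Their median log2 fold change was −0.35. Cdkn2a, whose locus encodes both p16 and the Mdm2 inhibitor ARF, had the largest rise, from 7.41 ± 1.05 to 106.0 ± 19.9 CPM (log2 fold change 3.83, SE 0.14, edgeR adjusted p 2.57e-14), and a count per gene cannot separate the products. The acetyltransferase Crebbp rose by 1.97 and Trp53bp2, a p53-binding protein of the ASPP family, by 1.65. The checkpoint kinase Chek1 (−2.43), the nuclear body protein Pml (−2.42) and Ppp1r13l (−1.88), an ASPP family inhibitor of p53, fell most. The damage kinases Atm (−0.57) and Atr (−0.75) were called lower, and the p53 relatives Trp63 and Trp73 were at 0 counts in all 8 libraries, which allows at most 0.467 CPM in the shallowest.

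**Figure D4:**
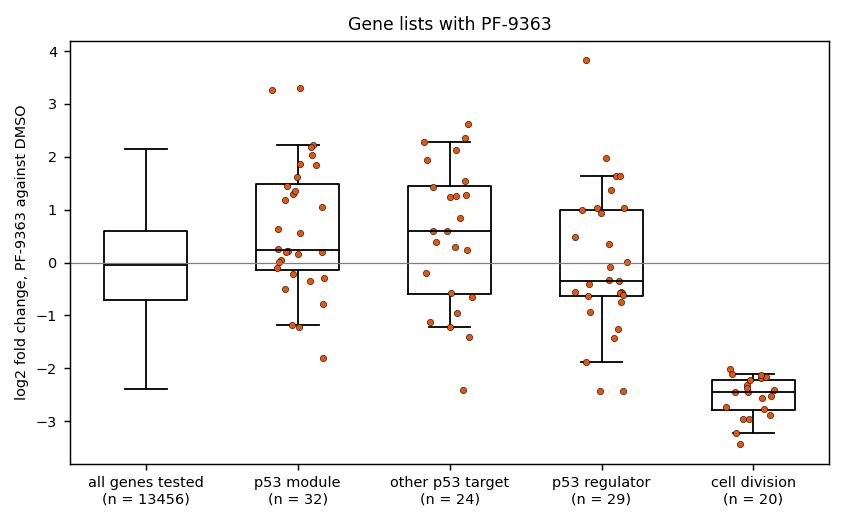
Log2 fold changes with PF-9363 for all 13456 genes tested (box only) and for the p53 genes, the other p53 targets, the p53 regulators and the cell division genes (1 point per gene); boxes show quartiles and median, whiskers the 5th and 95th percentiles. The medians are −0.04, 0.24, 0.60, −0.35 and −2.45, and the cell division genes all lie below −2.

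SETBP1-D868N was compared with luciferase to see how the mutant alters transcripts, and the p53 genes moved little. Trp53 rose 1.24-fold, Aen, Pidd1, Ptp4a3 and Ppm1d rose 1.18-fold to 1.34-fold, and Pltp, Trp53inp1, Plk2, Btg2 and Fas fell. All 34 genes were tested, and 10 were called higher and 8 lower, 29.4% and 23.5%. Over the 15794 genes tested, 47.2% were called, 24.5% higher and 22.7% lower (31.1% and 19.0% with scaling by library size), so the members' shares were near the background. Groups did not overlap in 18 of 34, against 56.7% of all genes. The median log2 fold change was 0.01 (0.07 without luciferase 1, −0.01 without luciferase 2) and the median of its size 0.16, against 0.004 and 0.19 over all genes. At least 2-fold changes were 0 rises and 1 fall, against 1.34% and 2.48% of all genes. The fall was that of Pltp, whose log2 fold change was −0.98 in the fit where it was smallest.

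Trp53 stood at 208.6, 211.4 and 208.0 CPM in luciferase libraries 1 to 3 and at 264.9, 253.4 and 259.9 CPM in SETBP1-D868N libraries 1 to 3. The groups were apart by many times their spread, with a shift of 0.31 on the log2 scale (SE 0.026, edgeR adjusted p 1.60e-06). Mdm2 did not follow, at 107.6, 107.2 and 113.7 CPM and 111.0, 115.3 and 109.6 CPM (log2 fold change 0.03, SE 0.033, edgeR adjusted p 0.446). Mdm4 stood at 136.3, 126.5 and 128.6 CPM and at 118.4, 130.2 and 126.1 CPM, with overlapping groups and a shift of −0.06 on the log2 scale (SE 0.040, edgeR adjusted p 0.214). Ppm1d went from 26.7, 27.7 and 27.2 CPM to 32.6, 32.0 and 31.7 CPM, a shift of 0.24 on the log2 scale (SE 0.038, edgeR adjusted p 2.39e-04).

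**Figure D5:**
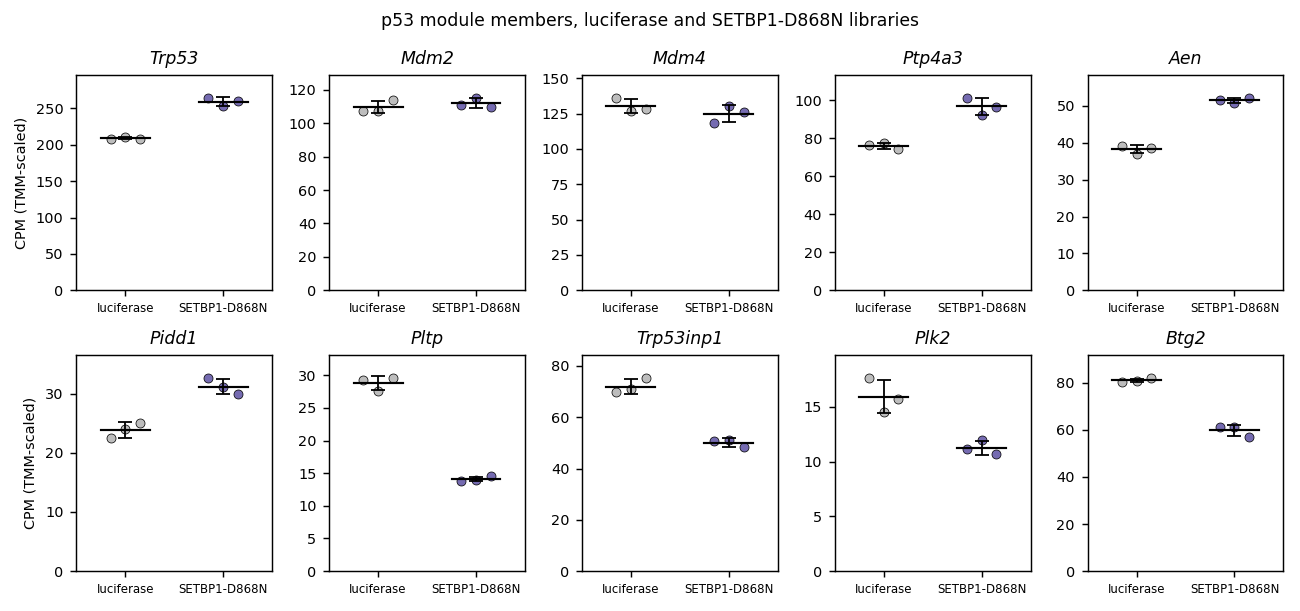
CPM of 10 p53 genes in each luciferase and SETBP1-D868N library (points), with group mean and SD (bars, n = 3), on axes that start at 0. Groups overlap for Mdm2 and Mdm4; Trp53, Ptp4a3, Aen and Pidd1 are higher and Pltp, Trp53inp1, Plk2 and Btg2 lower in the SETBP1-D868N libraries.

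Aen showed the largest rise, from 39.2, 37.0 and 38.7 CPM to 51.5, 50.8 and 52.3 CPM, a shift of 0.43 on the log2 scale (SE 0.035, edgeR adjusted p 1.38e-06). Pidd1 went from 22.5, 24.0 and 25.1 CPM to 32.6, 31.1 and 29.9 CPM, a shift of 0.39 on the log2 scale (SE 0.050, edgeR adjusted p 5.00e-05). Ptp4a3 went from 76.4, 77.3 and 74.3 CPM to 101.3, 92.2 and 96.6 CPM, a shift of 0.35 on the log2 scale (SE 0.036, edgeR adjusted p 9.46e-06). In each of these the lowest SETBP1-D868N library was above the highest luciferase library. Xpc (0.23), Gtse1 (0.23), Ccng1 (0.12), Psrc1 (0.14) and Ei24 (0.09) were called higher by less. The Psrc1 call (edgeR adjusted p 0.0433) held in 1 of the 6 fits without a library, that without luciferase 2, and the Ei24 call (0.0414) in those without luciferase 1 or SETBP1-D868N 3. Both calls were also lost with DESeq2 (0.0967 and 0.139), RLE size factors, the mean-count filter and the replicate block, that of Psrc1 with limma-voom and that of Ei24 without robust estimation.

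Pltp fell most, from 29.2, 27.6 and 29.5 CPM to 13.87, 14 and 14.52 CPM, a shift of −1.03 on the log2 scale (SE 0.046, edgeR adjusted p 1.94e-08). Trp53inp1 went from 69.9, 70.9 and 75.1 CPM to 50.9, 51.3 and 48.2 CPM, a shift of −0.52 on the log2 scale (SE 0.038, edgeR adjusted p 5.43e-07). Plk2 went from 17.6, 14.6 and 15.7 CPM to 11.2, 12.0 and 10.7 CPM, a shift of −0.50 on the log2 scale (SE 0.073, edgeR adjusted p 1.50e-04). None of these genes had overlapping groups. Btg2 went from 80.6, 80.7 and 81.9 CPM to 61.3, 61.2 and 57.2 CPM (log2 fold change −0.44, SE 0.033, edgeR adjusted p 8.46e-07). Fas went from 13.4, 14.5 and 13.6 CPM to 10.3, 10.4 and 11.3 CPM (log2 fold change −0.37, SE 0.059, edgeR adjusted p 2.61e-04). Perp fell by 0.25 and Apaf1 by 0.21 on the log2 scale. Ephx1 was called lower as well (−0.25, edgeR adjusted p 0.0211), and that call was lost under library-size scaling, with the replicate block (adjusted p 0.0504) and without luciferase 1, luciferase 3, SETBP1-D868N 1 or SETBP1-D868N 3. Over all genes tested, 24.5% were called higher and 22.7% lower. By role, 2 of the 5 genes at the core of the pathway were higher and 0 lower. Of the 16 growth arrest, stress and metabolism genes 3 were higher and 5 lower, and of the 7 apoptosis genes 2 were higher and 3 lower. Of the 4 repair genes 1 was higher and 0 lower, and both mitosis genes were higher.

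The 16 members not called had log2 fold changes of at most 0.18 in size, among them Sesn2 (−0.04), Plk3 (−0.06), Zmat3 (−0.01) and Phlda3 (−0.02), which rose strongly with PF-9363. Gdf15 (1.46 ± 0.251 and 1.57 ± 0.311 CPM, SD, n = 3) and Eda2r (1.65 ± 0.254 and 1.63 ± 0.0543 CPM) were low in both groups. Of the 25 other p53 targets 6 were called higher and 8 lower, beside 24.5% and 22.7% of all genes. Trp53i11 (−1.23) fell by most, and Cdkn1a fell from 182 to 154 CPM. Dyrk3 (0.61), Fdxr (0.28) and Ckap2 (0.24) had the largest rises and Sulf2 (−0.45) and Notch1 (−0.35) the next largest falls. Of the 29 tested regulators 7 were called higher and 2 lower, beside 24.5% and 22.7% of all genes. Cdkn2a (0.35), Chek1 (0.27) and Mre11a (0.21) rose most, and those called lower were Hipk1 (−0.31) and Trp53bp2 (−0.25). Markers moved here too, where 24.5% of all genes were called higher and 22.7% lower. All 10 monocyte and macrophage genes were called lower (sums of 3276 to 3398 and 2066 to 2344 CPM), and of the 12 neutrophil genes 8 were lower and 4 higher (25210 to 26270 and 17280 to 19840 CPM). The mast cell and basophil list had 4 of 10 higher and 6 lower (5076 to 5289 and 5575 to 5833 CPM), the stem and progenitor list 5 of 8 higher and 3 lower (894.4 to 915.7 and 952.6 to 994.4 CPM). The erythroid and megakaryocyte list stood at 275.1 to 291.9 and 292.8 to 317 CPM and the lymphocyte list at 73.3 to 77.9 and 71.8 to 80.2 CPM. Of the 9 erythroid and megakaryocyte genes 8 were tested, and 3 were called higher and 2 lower. No gene of these 6 lists was at 0 in every library of a group. Of the 20 cell division genes 10 were called higher (3855 to 4115 and 3951 to 4225 CPM), beside 24.5% of all genes, but 6 without luciferase 2 and 5 without luciferase 3. The part of these cell types and of cell division in the p53 genes was not tested.

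The experiments share no library, and 32 of the genes were tested in both. Called in opposite directions were 10 of them (31.2%), near the 34.9% of the 12376 genes tested in both, and in the same direction 4 (12.5%), against 9.05% of all genes. Btg2, Plk2, Trp53inp1, Pltp, Fas and Perp were lower with SETBP1-D868N and higher with PF-9363, and Ei24, Pidd1, Xpc and Gtse1 went the other way, up in the first experiment and down in the second. Perp stood at 79.6, 76.5 and 75.0 CPM with luciferase and at 65.3, 60.04 and 68.3 CPM with SETBP1-D868N (log2 fold change −0.25, SE 0.045, edgeR adjusted p 7.94e-04), beside its log2 fold change of 1.62 with PF-9363. Ccng1, Ptp4a3 and Aen were higher in both and Apaf1 lower in both. Of these, the Ei24 call with SETBP1-D868N was lost in 9 of 14 other fits. The Ptp4a3 call with PF-9363 was lost in 5 of 16 other fits, and its sign changed in 1. A further 8, namely Mdm2, Mdm4, Sesn2, Plk3, Phlda3, Gdf15, Zmat3 and Ddb2, passed as higher with PF-9363 and did not pass in the first experiment. Those 8 were 25% of the members, against 15.4% of all genes. Dcxr and Polk passed as lower with PF-9363 alone, 6.25% against 17.8%. Trp53, Ppm1d and Psrc1 passed as higher with SETBP1-D868N alone (9.38% against 6.08%) and Ephx1 as lower (3.12% against 3.80%). Pvt1, Sesn1, Tnfrsf10b and Ercc5 passed in neither. Whether effects differ in size between the experiments was not tested.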

How the data were processed

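Raw counts for each gene symbol were deposited, 1 table per experiment with 1 column per library. STAR, DESeq2, GRCm38 and mm10 are named in the submitters' processing notes, without roles. The counting program, annotation, strand handling and duplicate removal are not given in the sources used here. Per the labels' protocols, 500 ng of RNA entered the first experiment and 100 ng the second, prepared separately, so each was analysed on its own.

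Genes were kept by filterByExpr (minimum count 10, minimum total 15) of edgeR 4.0.16 in R 4.3.3. CPM use the TMM-scaled total of the kept genes. Groups, taken from the titles, were tested by edgeR's quasi-likelihood method (robust), with Benjamini-Hochberg adjustment. Standard errors are the absolute log2 fold change over the square root of F. Lengths and overlaps came from GENCODE M21 and promoter windows from RefSeq. Alternatives were RLE or library-size scaling, other filters, DESeq2 1.42.0, limma-voom 3.58.1, no robust estimation, a replicate block and leaving out each library.

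The members and lists were chosen with earlier results of these data known. Shown in full are Trp53, Mdm2 and Mdm4, the 5 called members per direction with the largest change and at least 5 CPM, and members called in opposite directions with log2 changes of at least 0.25 in both. Exceptions are Btg2, Trp53inp1 and Pltp with PF-9363, given by log2 fold change without values per library, and for Btg2 also by mean and SD. From the lists of other targets, regulators and cell division genes, the 3 largest calls per direction are named. The cell division genes called higher with SETBP1-D868N are given by count and summed level only. Further genes of the lists (Cdkn1a, Bax, Bbc3, Pmaip1, Atm, Atr, Trp63 and Trp73) and the marker Ighm were named after their values were seen. 1 marker gene is not reported here.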

Additional observations from a re-analysis of the deposited data

Results flagged for a closer look

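Of 68 groups of 4 libraries (each of the 34 genes with DMSO and with PF-9363), 3 held a library far from the other 3, and chance flags about 1 in 20 groups. Plk3 in DMSO 3 stood at 5.99 CPM, with the other DMSO libraries at 8.71 to 9.08 CPM. In PF-9363 3 it stood at 37.2 CPM, with the others at 31.6 to 32.5 CPM. Zmat3 in DMSO 4 stood at 5.72 CPM, with the others at 7.54 to 7.68 CPM. Both genes were called higher with PF-9363 in each fit that left out 1 library.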

How the results depend on the processing

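Of 988 gene values refitted, 916 kept their direction and call, 31 lost the call, 14 gained it and 27 changed sign. Counts of members stayed within 1.5 times in every fit. With SETBP1-D868N, 8 to 12 were higher and 7 to 9 lower, with PF-9363 15 to 18 higher and 7 to 9 lower, and 9 to 11 moved in opposite directions. Library-size scaling moved the member median to 0.061 (SETBP1-D868N) and 0.010 (PF-9363), the former ranging from −0.014 to 0.069 with 1 library left out. It raised the regulators called higher with SETBP1-D868N from 7 to 11, and those called lower went from 2 to 4 with limma-voom and to 4 without robust estimation. Cell division genes higher with SETBP1-D868N went from 10 to 6 with DESeq2, to 6 with the replicate block and to between 5 and 10 with a library left out. The cause was not tested.

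Values that changed sign belonged to genes that did not pass, except Ptp4a3. Under library-size scaling, SETBP1-D868N values became 0.020 (Eda2r), 0.018 (Ercc5), 0.034 (Phlda3), 0.0082 (Sesn2) and 0.041 (Zmat3). PF-9363 values became −0.17 (Ephx1), −0.21 (Ercc5), −0.028 (Ppm1d), −0.0027 (Ptp4a3), −0.0046 (Pvt1), −0.025 (Tnfrsf10b) and −0.064 (Trp53), and Ercc5 was −0.0035 without the count filter. With a library left out, SETBP1-D868N values ranged from −0.13 to 0.087 (Eda2r), −0.018 to 0.25 (Gdf15), −0.065 to 0.048 (Phlda3), −0.0075 to 0.14 (Pvt1) and −0.055 to 0.052 (Zmat3), and PF-9363 values from −0.070 to 0.20 (Ephx1) and −0.034 to 0.11 (Ercc5).

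With SETBP1-D868N, Sesn1 (0.12) and Tnfrsf10b (0.20) passed under library-size scaling, Tnfrsf10b also without SETBP1-D868N 2 (0.21), and Ddb2 without the filter (−0.16) or SETBP1-D868N 1 (−0.29). Replicate numbers showed no sign of pairing: correlations of same-numbered deviations were −0.0968 to −0.0369 and −0.0407 to 0.00827, and 0 libraries matched their own number best. With so few libraries this cannot exclude a shared origin of same-numbered libraries, on which the labels are silent. With the replicate block, 8 members were higher and 7 lower with SETBP1-D868N, and 17 and 7 with PF-9363. In the second experiment Ak1 and Eda2r could not be tested. Its libraries were shallower, and both genes also stood lower in CPM, with each experiment normalized separately. Ak1 was at 1.33 CPM with DMSO, beside 3.20 CPM with SETBP1-D868N in the first experiment. Eda2r was at 0.0716 CPM with DMSO, beside 1.63 CPM with SETBP1-D868N. The part of depth was not tested.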

Other observations

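Among the 17 genes that rose with PF-9363, PF-9363 3 was the highest treated library for 10 and PF-9363 4 for 7, and PF-9363 1 and 2 for 0. PF-9363 3 was the shallowest library, with 7083731 counts, and PF-9363 4 held 10204901. TMM factors were 0.909 for PF-9363 3 and 0.905 for PF-9363 4, beside 0.939 and 0.940 for PF-9363 1 and 2. A lower factor raises every CPM of a library, and the part of scaling in this order was not tested. The same order was not counted over all genes. Among the DMSO libraries, DMSO 4 was the highest for Btg2, Fas, Gdf15, Phlda3, Plk2 and Sesn2, DMSO 2 for 7 genes, DMSO 3 for 4 and DMSO 1 for 0.

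The SETBP1-D868N libraries of the first experiment and the DMSO libraries of the second carry the same construct, but were prepared and normalized separately, so their levels are given side by side with no test. Phlda3 stood at 8.79 ± 0.529 CPM (n = 3) in the first and at 0.885 ± 0.699 CPM (n = 4) in the second. Trp53 stood at 259 ± 5.74 and 77.9 ± 6.16 CPM, Perp at 64.5 ± 4.18 and 13.5 ± 0.793 CPM, and Zmat3 at 26.9 ± 1.07 and 7.13 ± 0.944 CPM. Gdf15 was the other way round, at 1.57 ± 0.311 and 8.77 ± 1.24 CPM. Mdm4 was at 124.9 ± 5.99 and 125.1 ± 9.62 CPM. These genes were chosen after their values were seen.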
